A study of Drosophila melanogaster with 4 samples.

Results

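H2Av-enriched regions on the euchromatic part of 3L, the left arm of chromosome 3 of Drosophila melanogaster, are described here by their position, width, spacing and score. The members are the regions on 3L whose midpoint lies at or below position 22543557, which leaves out the last 2 Mb of the assembled arm on its centromere side. They were chosen by position alone, and there are 1493 of 9667 regions in the list of ChIP replicate 1, 740 of 4664 in the list of ChIP replicate 2 and 1172 of 7944 in the combined list of the series. The study mapped H2Av by ChIP-seq, the sequencing of immunoprecipitated chromatin, in nuclei of wild-type Oregon-R at the 3rd instar, the last larval stage, with 2 ChIP and 2 input libraries. All libraries share the strain, the stage and the formaldehyde-crosslinked, sonicated chromatin. The ChIP libraries were precipitated with an antibody to H2Av, and the labels tie each list to the input of the same replicate number. Whether the replicates are separate collections is not stated, so p-values and SDs measure only the spread between these libraries, which may be technical. Chromatin of larvae mixes many tissues, and fewer nuclei with the variant at a place cannot be told apart from less of it per nucleus. Positions are on FlyBase release 5, and regions are named by position, since no gene annotation of that release was used here.

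H2Av is the histone H2A variant of this fly and serves in place of both H2A.Z and H2A.X of other animals. Like H2A.Z it is placed into nucleosomes by chromatin remodellers and is known at the start of many transcribed genes, and like H2A.X it is phosphorylated where DNA breaks. It is also known for roles in heterochromatin and in silencing by Polycomb proteins. Euchromatin of a fly arm is gene rich and alternates between stretches of active genes and long silent stretches, which larval polytene chromosomes show as interbands and bands.

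H2Av regions took up about as much of euchromatic 3L as of the other arms set beside it. On the 22.5 Mb segment of 3L, replicate 1 held 66.2 regions per Mb over 5.46 Mb, and replicate 2 held 32.8 per Mb over 3.87 Mb. These regions covered 24.2% of the segment in replicate 1 and 17.2% in replicate 2 (20.7% ± 4.99, SD, n = 2), with 23.2% for the combined one. The lists therefore differed more in the number of regions, with 2.02 times as many in replicate 1, than in the bases covered, with 1.41 times as many. Read depth is unknown, and the number called can move with depth and threshold.

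X, 2L and 3R, each without the 2 Mb next to its centromere, served as background. Together they held 66.5 regions per Mb in replicate 1 and 33.2 in replicate 2, with 24.3% and 18.0% of their bases covered. The log2 fold of 3L over this background was -0.0038 in replicate 1 and -0.065 in replicate 2 for coverage (mean -0.034 ± 0.043, SD, n = 2). An exact sign-flip permutation test over the 2 libraries gave p = 0.5, 2-sided, the smallest p this test can give with 2 libraries, so it cannot find a difference between arms of any size. Coverage of 3L lay between that of 2L and that of X in all 3 lists. On 2L it was 23.4% in replicate 1 and 16.5% in replicate 2, and on X it was 25.6% and 19.0%. The order of 3L and 3R was not the same in the libraries, with 24.0% on 3R in replicate 1 and 18.4% in replicate 2. Numbers of regions per Mb on 3L also fell between 2L and X in every list, and 3R lay slightly above 3L in each. These gaps between arms are smaller than the gap between the replicates on any one arm.

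**Figure D1:**
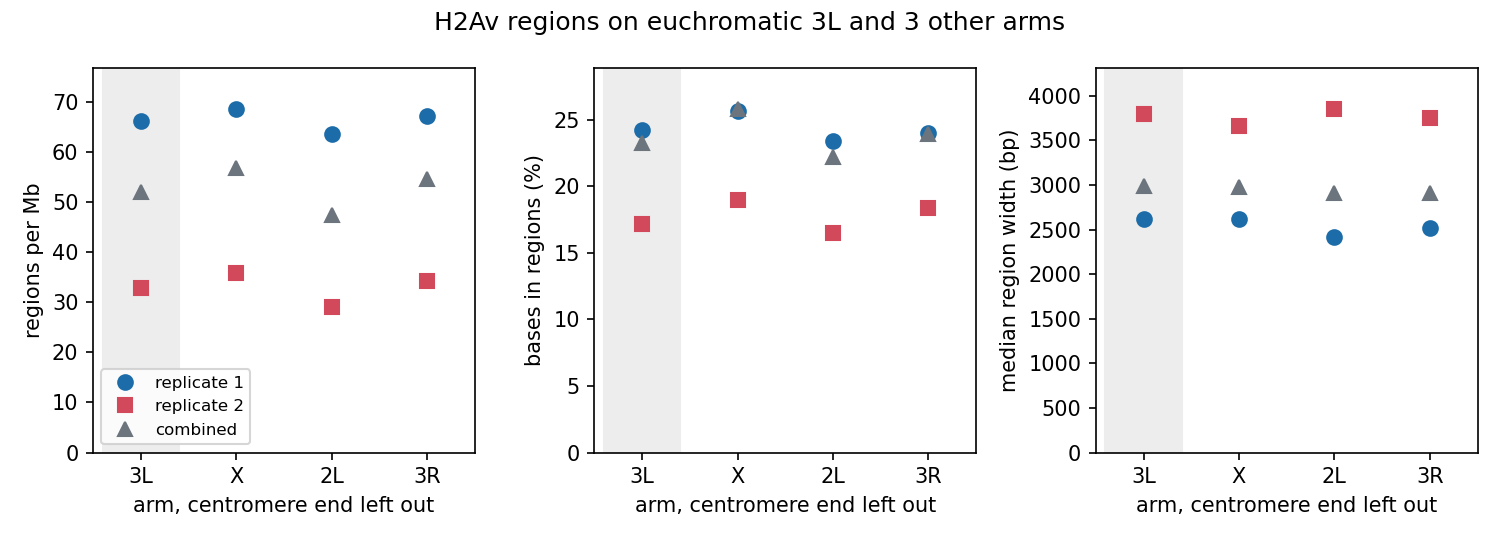
Regions per Mb, percent of bases in regions and median region width (bp) on euchromatic 3L (grey band) and on X, 2L and 3R, each without 2 Mb at its centromere end. Each point is 1 list, the axes start at 0, and the 2 replicates differ on every arm by more than the arms differ within a list (on 3L 66.2 against 32.8 regions per Mb).

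Regions on 3L were a few kilobases wide, and replicate 2 had the wider ones. The median width was 2617 bp in replicate 1 with quartiles of 1680 and 4380 bp, and 3797 bp in replicate 2 with quartiles of 2468 and 6576 bp. The combined list had a median of 2987 bp. Its narrowest region spanned 1001 bp, and those of the replicates 1302 and 1303 bp. The narrowest regions of the other arms were 1301 to 1304 bp in the replicates and 1001 bp in the combined list, and no source used here gives a minimum size. Medians on the background arms were 2519, 3746 and 2932 bp in the same order of lists.

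Broad regions, of at least 10 kb, were a minority by number and held a larger share of the bases. Replicate 1 had 65 of them on 3L, or 4.35% of its regions, against 4.93% on the background arms. Replicate 2 had 75, or 10.1%, against 12.3%, and the combined list had 105, or 8.96%, against 9.40%. The share on 3L was thus near the background in each list and slightly below it. Of the bases in regions on 3L, 17.3% lay in broad ones in replicate 1 and 30.1% in replicate 2, while on the other arms they held 17.3% to 22.6% and 33.7% to 37.7%. The widest 10% of regions held 30.2% of the bases in replicate 1 and 29.8% in replicate 2.

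Scores rose with width within each list. The score is the authors' own value per region, a positive number whose scale is not given in the sources used here, so it is used to rank regions within a list. Its medians on 3L were 0.74 and 0.93 for replicates 1 and 2 and 0.53 for the combined list, against 0.76, 0.94 and 0.54 on the background arms. The Spearman correlation of width and score across regions of 3L was 0.75 over the 1493 regions of replicate 1, 0.76 over the 740 of replicate 2 and 0.75 over the 1172 combined ones. Regions of a list share the library, so these correlations are descriptions. Many narrow regions carried a score that occurred more than once in their list to the last decimal. On 3L these were 392 regions of replicate 1, or 26.3%, with a median width of 1714 bp, and 53 regions of replicate 2, or 7.16%, with a median of 2255 bp.

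Regions on 3L were unevenly spaced, and a minority of long gaps held most of the bases between regions. The median gap to the next region was 3031 bp in replicate 1 and 4394 bp in replicate 2, but the mean gap was 11401 bp and 24716 bp. The SD of the gaps was 2.26 times their mean in replicate 1 and 2.11 times in replicate 2, so the gaps were very unequal in length. At the short end, 404 gaps of replicate 1 (27.1%) and 157 of replicate 2 (21.2%) were under 1 kb. At the long end, gaps of at least 10 kb were 24.2% of all in replicate 1 and 34.6% in replicate 2, and they held 82.6% and 92.8% of the bases between regions. The other arms gave like values, with a ratio of SD to mean of 2.13 to 2.25 in replicate 1 and 2.04 to 2.34 in replicate 2.

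**Figure D2:**
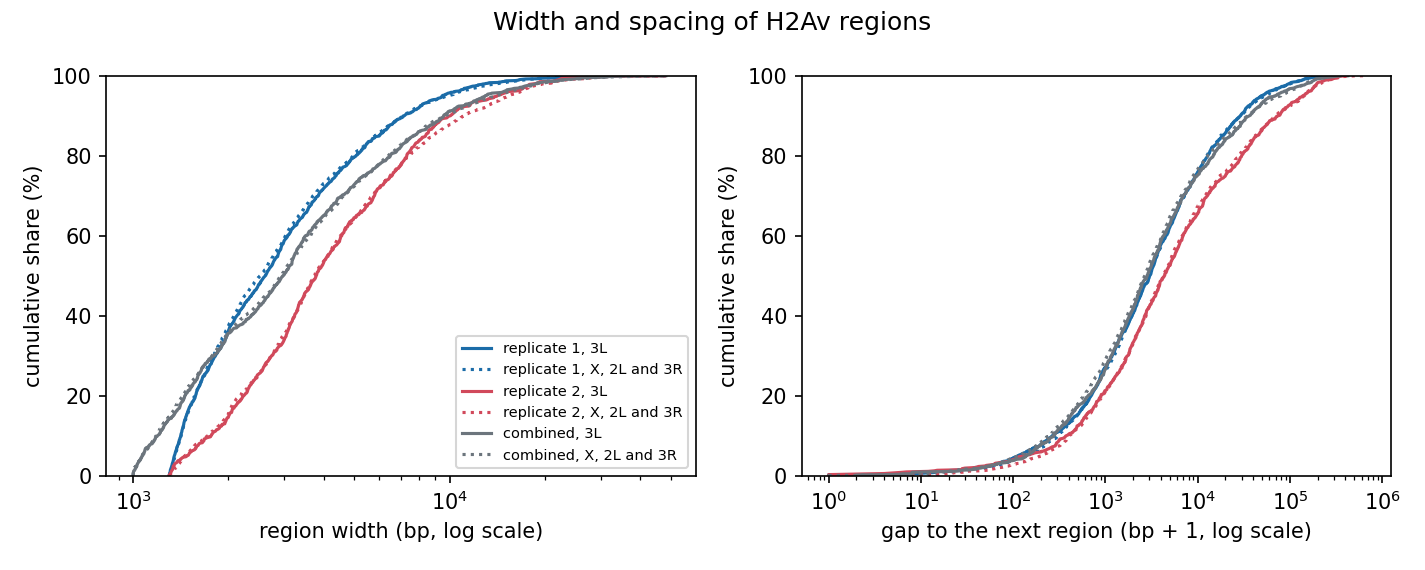
Cumulative share (%) of regions by width (bp, left) and of gaps by length (bp + 1, right), both on log axes, for each list on 3L (solid) and on X, 2L and 3R pooled (dotted). Solid and dotted curves of a list run close together, while the lists stand apart, with median widths on 3L of 2617, 3797 and 2987 bp in replicate 1, replicate 2 and the combined list.

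Runs of regions with gaps under 1 kb show close spacing at single places, and most regions lay outside such runs. In replicate 1 819 of 1493 regions (54.9%) had no neighbour that close, and in replicate 2 462 of 740 (62.4%). On X, 2L and 3R these shares were 55.1%, 55.6% and 56.4% in replicate 1 and 64.8%, 64.4% and 59.1% in replicate 2, so 3L was near them. Runs of at least 5 regions held 4.69% of the regions of 3L in replicate 1 and 1.62% in replicate 2. The longest run by number in replicate 1 held 7 regions over 29.0 kb at 18870664 to 18899660, where 88.1% of bases lay in regions, and replicate 2 covered 45.6% of it in 3 regions. In replicate 2 the longest run also held 7 regions, over 41.7 kb at 8586663 to 8628369, and replicate 1 covered 69.3% of it in 8 regions. The combined list had its longest run by number at 4253414 to 4307702, with 7 regions over 54.3 kb, of which replicate 1 covered 78.7% and replicate 2 covered 92.4%. By length, the longest runs of all 3 lists lay at the same place at this gap limit, which was chosen after the values were seen. With gaps under 2 kb joined, that of replicate 1 stayed there, while those of replicate 2 (70.4 kb, from 4253381) and of the combined list (70.6 kb, from 4253414) lay elsewhere. At 1 kb they ran from 20414247 to 20463854 in replicate 1, from 20409588 to 20462545 in replicate 2 and from 20399212 to 20462894 in the combined list, and 97.3%, 99.1% and 98.6% of their bases lay in regions.

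Long stretches of the segment held no region. Replicate 1 left 28 stretches of at least 100 kb empty, which together made up 19.4% of euchromatic 3L, and replicate 2 left 56, which made up 45.7%. All 3 lists were empty together in 28 such stretches, over 4.33 Mb or 19.2% of the segment. On X, 2L and 3R stretches empty in all 3 lists made up 17.6%, 20.0% and 19.1%. The longest on 3L spanned 268.1 kb at 4838265 to 5106327. The others of the longest 5 lay at 11234464 to 11483402 (248.9 kb), 13051794 to 13292249 (240.5 kb), 22295913 to 22524472 (228.6 kb) and 10219399 to 10424169 (204.8 kb). Empty lists do not show that H2Av is absent there, since a list holds only what passed the authors' threshold.

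Coverage varied several-fold along the arm and the replicates followed each other. Over the 22 whole windows of 1 Mb, coverage ran from 7.39% to 38.2% in replicate 1 with a median of 23.9%, and from 3.94% to 30.3% in replicate 2 with a median of 18.2%. The Pearson correlation of coverage between the replicates was 0.90 over these 22 windows, 0.92 over 45 windows of 500 kb and 0.93 over 225 windows of 100 kb. On X, 2L and 3R the values for 1 Mb were 0.89, 0.94 and 0.88. Windows of 1 arm share libraries and mappability, so no test is given. Replicate 1 had the higher coverage in 22 of 22 windows of 1 Mb, and its ratio to replicate 2 ran from 1.05 to 2.81 with a median of 1.41. Windows of 500 kb varied more. The ratio reached 4.42 from 10000001 to 10500000, while from 13000001 to 13500000 replicate 2 was higher, with 16.6% against 15.9%.

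The richest and the poorest windows were the same in both replicates. The window from 21000001 to 22000000, close to the centromere-side limit, had the highest mean, with 38.2% in replicate 1 and 30.3% in replicate 2, and held 85 and 47 regions. The window from 10000001 to 11000000 had the lowest, with 7.39% and 3.94%, and held 24 and 10 regions. The windows on either side of this poorest one were covered to 28.7% and 33.1% in replicate 1. Neighbouring windows of 100 kb had a correlation of 0.24 in replicate 1 and 0.23 in replicate 2, and neighbouring windows of 1 Mb one of 0.16 and 0.0094. Of the windows of 100 kb, 17 held no base of a region in replicate 1 and 51 none in replicate 2, and all 17 were empty in both.

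**Figure D3:**
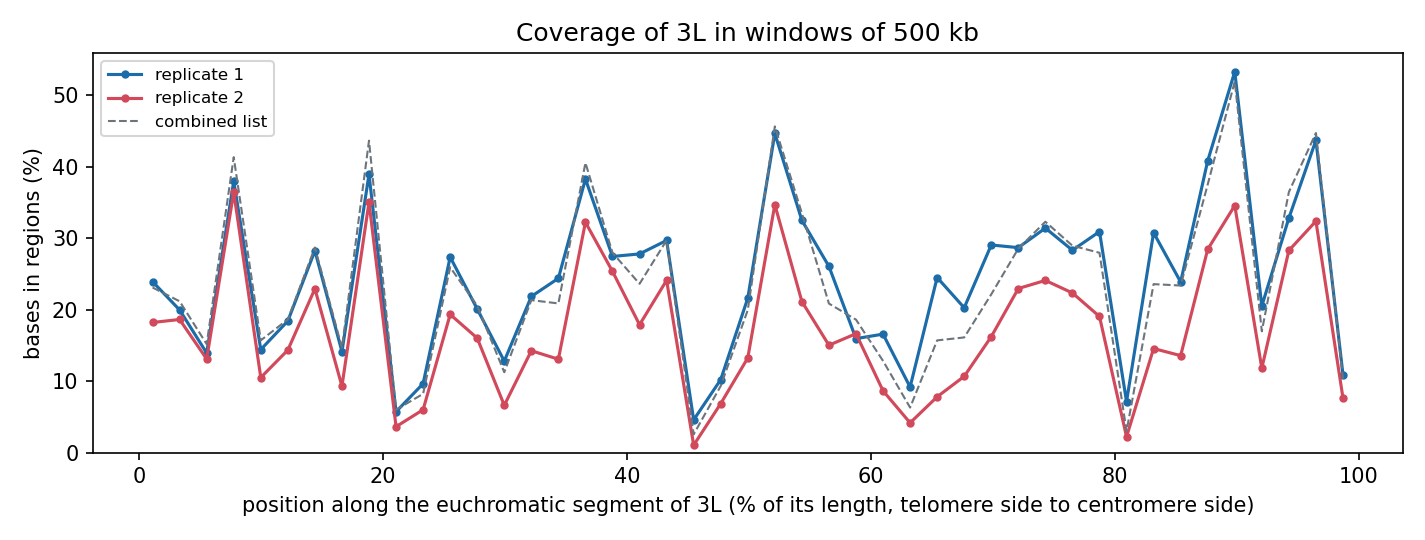
Percent of bases in regions in consecutive whole windows of 500 kb, plotted by position along the euchromatic segment of 3L (percent of its length, telomere side at the left). Both replicates rise and fall together (Pearson correlation 0.92 over 45 windows), and the combined list is drawn as a dashed line.

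Cut into 3 parts of 7.51 Mb, the segment was most covered on its centromere side in every list. In replicate 1 coverage was 20.5% on the telomere side, 23.5% in the middle and 28.7% on the centromere side, with 57.9, 67.2 and 73.6 regions per Mb. In replicate 2 it was 16.3%, 16.0% and 19.2%, with 31.1, 31.3 and 36.1 regions per Mb, so that the rise lay between the middle and the centromere side alone. Median widths in replicate 1 were 2735, 2455 and 2614 bp and did not follow that order. X had its highest coverage on the centromere side too (29.6% in replicate 1 and 20.8% in replicate 2), while 2L had its lowest there (19.1% and 12.3%). On 3R the libraries differed, with the centromere side highest in replicate 1 (25.3%) and the telomere side highest in replicate 2 (18.8%, against 18.2% on the centromere side). These trends were not tested.

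Nearly all replicate 2 regions on 3L, and somewhat over 50% of those of replicate 1, had a counterpart in the other list. In replicate 2, 705 of 740 had one by at least 1 bp, which is 95.3% (exact Clopper-Pearson 95% interval 93.5 to 96.7) against 95.0% on the background arms. Of 1493 regions of replicate 1, 810 overlapped replicate 2, or 54.3% (51.7 to 56.8), against 54.7% on the background arms. Both shares are close to the background, and the intervals cover counting error only. The shares depend on list length. With replicate 1 cut by score to the 4664 regions of replicate 2, their order reversed, to 64.1% for replicate 2 and 81.8% for replicate 1. The midpoint of a replicate 2 region fell inside a replicate 1 region in 661 of 740 cases, or 89.3%, while replicate 1 covered 24.2% of the segment. The midpoint of a replicate 1 region fell inside a replicate 2 region in 47.9% of cases, while replicate 2 covered 17.2%. On X, 2L and 3R replicate 2 midpoints fell inside in 86.9%, 89.1% and 86.6% of cases. Those of replicate 1 did so in 50.1%, 45.0% and 50.0%. By bases, 15.2% of the segment lay in regions of both lists, 9.03% in replicate 1 alone, 1.97% in replicate 2 alone and 73.8% in neither. Independent lists of the same coverage would share 4.16%. The shared bases were 62.7% of those of replicate 1 and 88.5% of those of replicate 2.

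**Figure D4:**
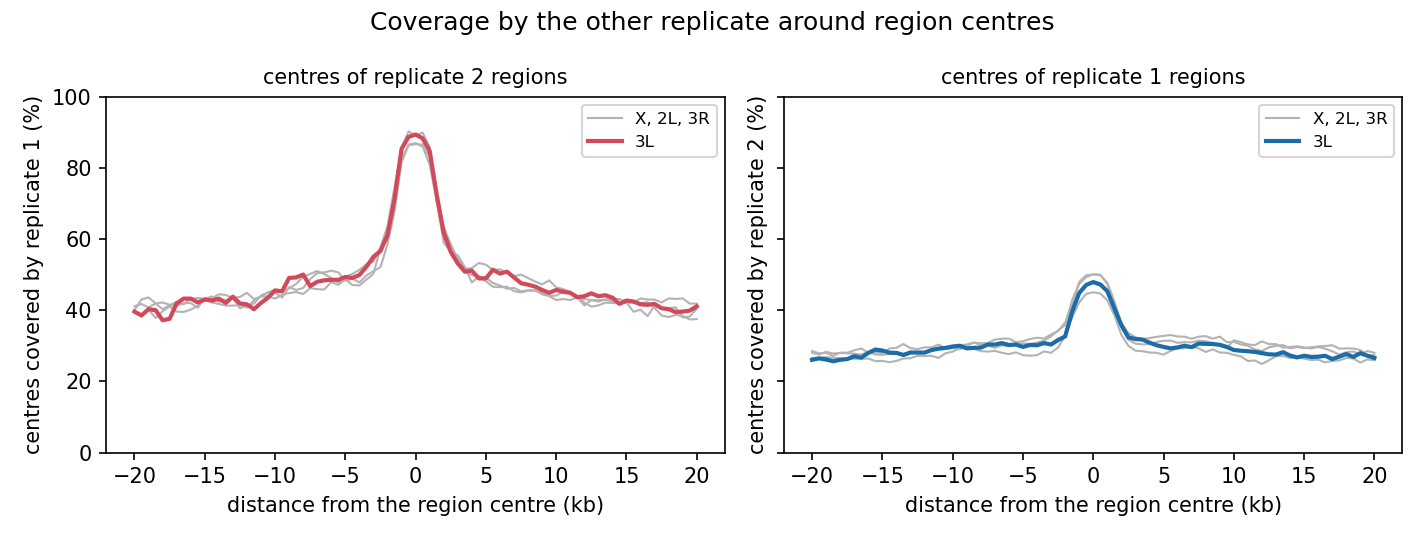
Share of region centres (%) that lie in a region of the other replicate, at distances of up to 20 kb from the centre, for 3L (thick) and for X, 2L and 3R (grey). For replicate 2 centres on 3L the share is 89.3% at the centre and 41.1% at 20 kb on the right, and for replicate 1 centres it is 47.9% and 26.6%.

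Around the centre of a replicate 2 region on 3L, coverage by replicate 1 fell quickly and then slowly. It was 89.3% at the centre, 56.4% at 2.5 kb, 45.7% at 10 kb and 41.1% at 20 kb toward the centromere. At 20 kb it was still above the 24.2% of the whole segment. The drop from the centre was as steep on the telomere side, with 56.6% at 2.5 kb.

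Regions of replicate 1 that replicate 2 lacked were the narrow ones. The 683 of them were 1743 bp wide at the median and scored 0.62, where the 810 found in replicate 2 were 3853 bp wide and scored 0.92. By quartile of width the share found in replicate 2 was 15.8%, 35.7%, 71.8% and 93.8% from the narrowest to the widest, and by quartile of score it was 32.9%, 37.5%, 59.5% and 87.1%. All 65 broad regions of replicate 1 and all 75 of replicate 2 on 3L were found in the other list. A wide region meets another more often by its size alone, and how much of the rise this makes up was not tested. In replicate 1, 23.7% of regions with a repeated score were found in replicate 2, against 65.1% of those with a score of their own. On X, 2L and 3R the shares were 29.1%, 21.6% and 28.4%, against 70.8%, 61.8% and 66.5%, so 3L was near them.

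Most of these 683 regions lay apart from any region of replicate 2. The nearest one was a median of 9494 bp away, under 1 kb for 59 of the 683 and at least 10 kb for 330. The 35 regions of replicate 2 that replicate 1 lacked lay closer, at a median of 1396 bp and at most 5696 bp. Replicate 2 is sparser than replicate 1, which by itself makes the first distance longer.

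**Figure D5:**
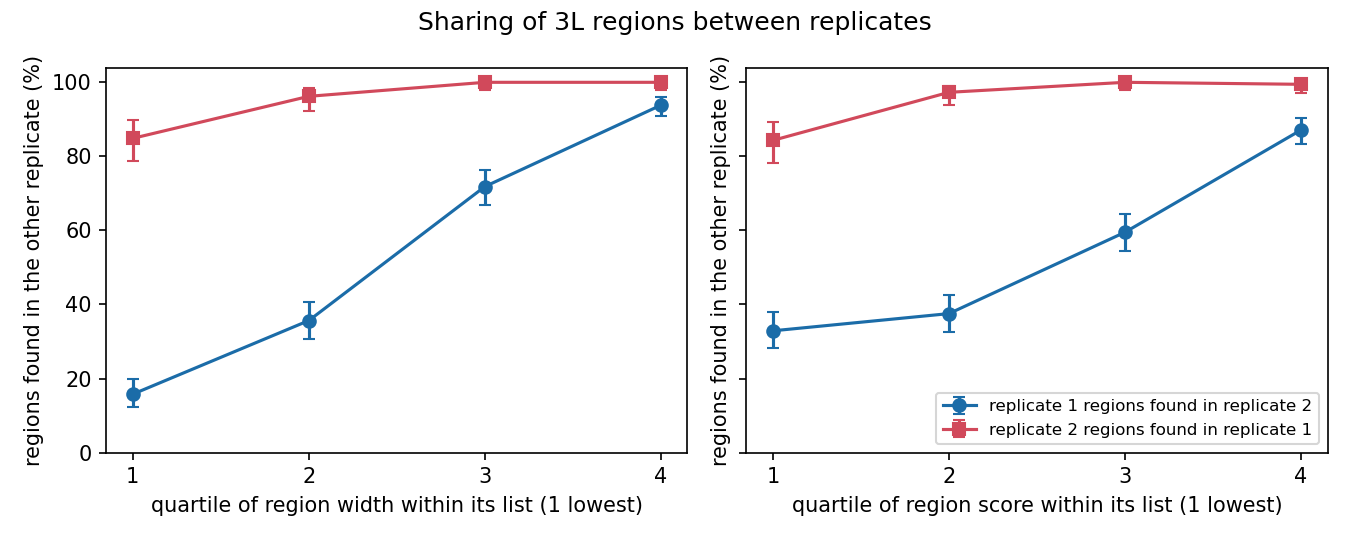
Share (%) of 3L regions found in the other replicate by at least 1 bp, by quartile of width (left) and of score (right) within each list. Bars give 95% intervals (exact Clopper-Pearson, counting error alone), and replicate 1 runs from 15.8% to 93.8% by width.

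Where the lists agreed, their edges lay close together. On 3L there were 447 pairs, 1 region from each list, in which neither region overlapped any further region of the other list. More regions had a single overlap, 552 in replicate 2 and 732 in replicate 1. Those whose partner met further regions were left out here. Within the 447 pairs, starts differed by a median of 342 bp (quartiles 177 and 804), ends by 361 bp (174 and 750) and midpoints by 314 bp (139 and 607). In 235 of these pairs, or 52.6%, one region lay wholly inside the other. Replicate 1 had the wider region in 260 pairs and replicate 2 in 187, with a median ratio of 1.06. The wider regions of replicate 2 in the whole list therefore do not show in these pairs, where the medians were 3862 bp in replicate 1 and 3577 bp in replicate 2. The Spearman correlation over the 447 pairs was 0.78 for width and 0.63 for score, against 0.75 to 0.83 and 0.62 to 0.75 on the background arms. Apart from these pairs, 153 regions of replicate 2 (20.7%) each met at least 2 regions of replicate 1, up to 5, while 78 of replicate 1 (5.22%) each met at least 2 of replicate 2, up to 4.

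The combined list kept the shared bases almost whole. On 3L it covered 99.95% of the bases in both replicates, 59.4% of those in replicate 1 alone and 74.6% of those in replicate 2 alone. Of its 1172 regions, 665 overlapped both replicates, which is 56.7% (exact Clopper-Pearson 95% interval 53.8 to 59.6) against 55.6% on the background arms. A further 377 (32.2%) overlapped replicate 1 alone, 41 (3.50%) replicate 2 alone and 89 (7.59%) neither. On X, 2L and 3R the shares for replicate 1 alone were 31.7%, 33.1% and 30.3%. For replicate 2 alone they were 2.50%, 2.20% and 4.17%, and for neither 10.8%, 9.32% and 9.41%. The 665 shared regions held 83.0% of the bases and all 105 broad regions. Their median width was 4805 bp, against 1613 bp for those in replicate 1 alone and 1193 bp for those in neither.

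The highest scores of the combined list on 3L were not those of shared regions, a check chosen after the values were seen. Of its 10 highest scores, 8 belonged to regions that overlapped neither replicate, 1 to a region found in replicate 1 alone and 1 to a region found in both. The first 3 were 14719962 to 14721376 with a score of 3.54, 21145100 to 21146116 with 3.39 and 5106328 to 5107328 with 3.22. They spanned 1415, 1017 and 1001 bp. The same 3 scores occur 10, 17 and 32 times in the whole list, so none of them is the value of a single place. The last of them begins at the end of the longest empty stretch of the segment. Of the 89 regions in neither replicate, 8 had a score over 2, and their median was 0.37. Among the 50 highest scores of the list on 3L, 40 belonged to regions found in both replicates and 9 to regions found in neither.

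Among regions found in both replicates the highest score lay at 19791540 to 19801914, with a combined score of 1.99 over 10375 bp. A single region of replicate 1 covered 98.99% of it with a score of 1.95, and a single region of replicate 2 covered 97.1% with 2.03, the highest of that list on the segment. Next were 6957242 to 6964292 (1.65), 19905070 to 19909294 (1.65), 21525510 to 21537024 (1.64) and 12996824 to 13005876 (1.63). The others of the first 10 lay at 19593930 to 19601422 (1.62), 13006738 to 13013982 (1.60), 1773490 to 1779204 (1.60), 11085488 to 11104310 (1.57) and 4280658 to 4285182 (1.56). The share of their bases in regions was 81.7% to 99.2% in replicate 1 and 86.9% to 100% in replicate 2. Their surroundings were unequally covered. In the 100 kb around each, without the region itself, 21.7% to 71.3% of bases lay in regions of replicate 1 and 12.0% to 70.3% in those of replicate 2. The lowest values, 21.7% and 12.0% around the region at 6957242, were below those of the whole segment. The pair at 12996824 and 13006738 is separated by 861 bp in the combined list.

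The widest region found in both replicates spanned 48.2 kb at 16562512 to 16610672. Replicate 2 called it as 1 region of 47445 bp, its widest on the segment, which covered 98.5% of it. Replicate 1 called 3 regions there, and they covered 99.3%. In replicate 2 it stood alone, with 147514 bp without a region before it and 29972 bp after it. The next 4 were 36.6 kb at 4001506 to 4038110, 32.1 kb at 6066868 to 6098988, 31.6 kb at 21546600 to 21578184 and 31.4 kb at 20431502 to 20462894. The last of them was a single region in both replicates, and in replicate 1 it was the widest of the segment at 32157 bp. The others broke into 4 to 6 regions in replicate 1 and 2 to 4 in replicate 2.

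Of the 373 highest-scoring regions of replicate 1, its top quartile, 48 were missing in replicate 2, while 1 of the 185 of replicate 2 was missing in replicate 1. The full lists differ the same way. On 3L 683 of 1493 regions of replicate 1 and 35 of 740 of replicate 2 were missing in the other list. On the background arms these were 2029 of 4479 and 112 of 2234. The highest score of replicate 1 on the segment, 2.76, belonged to 20326588 to 20332978, a region of 6391 bp that overlapped none of replicate 2. In the 100 kb around it, without the region itself, replicate 2 covered 59.0% of the bases and replicate 1 73.0%, and the combined list held 86.4% of the region with a top score of 1.05. Its second highest, 2.49 at 21369525 to 21371520, and the region at 2106527 to 2109217 with 1.70 were also missing in replicate 2, and these 2 scores occur 6 times and 2 times in the list of replicate 1. In replicate 2 the 3 highest scores missing in replicate 1 come from 35 such regions, against 683 for replicate 1, so they can rank lower by number alone. These 3 were lower in rank, with 1.44 at 11608952 to 11611801, 0.93 at 17860925 to 17862891 and 0.69 at 4304749 to 4307354. The first stood at percentile 91.2 of the scores of replicate 2 on 3L and the third at percentile 32.4. All 6 overlapped a region of the combined list.

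At the centromere-side limit of the segment the lists were sparse. The last 0.54 Mb was covered to 10.3% in replicate 1 and 7.01% in replicate 2. The last region inside the limit ended at 22525805 in replicate 1, at 22283276 in replicate 2 and at 22288624 in the combined list, with scores of 1.26, 1.01 and 0.46. The first regions beyond it began at 22596995, 22704010 and 22685226, with scores of 0.93, 0.56 and 0.38. No region of any list crossed the limit. On the telomere side the first region began at 51152 in replicate 1, at 145541 in replicate 2 and at 27266 in the combined list, and that of the combined list overlapped neither replicate. The first 500 kb was covered to 23.9% in replicate 1 and 18.2% in replicate 2, near the values of the whole segment.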

How the data were processed

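The authors deposited 3 region lists, 1 per ChIP library and 1 of the whole series. The lists give positions on FlyBase release 5, per the file headers, and 1 score per region, of undefined scale. Bowtie 0.12.7 is named in the submitters' processing notes. Peak caller, threshold, filters, combining method and read depth: not given in the sources used here. Precision from depth is therefore unknown, and the input libraries are used only through the lists. Regions were assigned by midpoint, and widths count both end positions. A region counted as found in another list when it overlapped it by at least 1 bp. X, 2L and 3R were cut by 2 Mb on their centromere side, which for 3R is its start. With 2 libraries, values are descriptions, given per list and as mean ± SD over the replicates. The other named regions follow a rule of score, width or position: the 10 highest scores and 5 widest regions of the combined list found in both replicates, the 5 longest stretches empty in all lists, the 3 highest scores missing in the other replicate, extreme windows, longest runs and regions at the limits. The run gaps of 1 and 2 kb, the 100 kb around named regions, the cut into 3 parts, the profile around centres, the highest or widest regions of single lists, the first regions of the arm and repeated scores were chosen after the values were seen. Members and lists were chosen with earlier results of these data known. Region overlap, gaps and windows were tested on simulated data. Python 3.11.15, NumPy 2.4.6, SciPy 1.17.1 and pandas 2.3.3 were used. A gene table of release 6 was not used.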

Additional observations from a re-analysis of the deposited data

How the results depend on the processing

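Of 76 alternatives over 12 results, 10 left out 1 replicate from a mean of 2 that was judged by its SD. This moves the mean by less than the SD by construction and shows nothing about stability. Of the other 66, 37 moved the value by less than the SD of the replicates or stayed within its interval, kept the sign for the comparison of arms, or gave the same correlation to 2 decimals. That SD is wide, with 23.6 on a mean of 49.5 for regions per Mb, so large moves could count among the 37. The 37 also include the arm folds without 1 replicate, whose sign was set because both replicates gave negative folds. Keeping the higher-scoring 50% of each list left fewer and wider regions. Mean coverage became 13.8%, regions per Mb 21.9, median width 5205 bp, median gap 11297 bp, the share of broad regions 14.2%, the share of replicate 2 found in replicate 1 89.2%, the reverse share 61.9%, the window correlation 0.84 and the share of the combined list found in both replicates 64.8%. Cutting replicate 1 by score to the 4664 regions of replicate 2 gave a mean coverage of 16.0% and 29.1 regions per Mb, both counted among the 37. The median width became 4281 bp and the median gap 7274 bp. Shares found became 64.1% for replicate 2 and 81.8% for replicate 1, the reverse of their order in the full lists. Asking for 50% of the region gave 91.1% and 47.6%, and 51.4% for the combined list. Asking for 50% of both regions gave 75.1% and 37.2%, and a score correlation of 0.65. Merging gaps under 500 bp gave a median gap of 4936 bp, and a threshold of 5 kb put 28.0% of regions among the broad ones. The window correlation was 0.92 at 500 kb and 0.93 at 100 kb.

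The log2 fold of 3L over the other arms changed sign with the length left out at the centromere and with the background. For coverage it was 0.00061 with 1 Mb left out, 0.032 with none and 0.054 against 2L alone, and for regions per Mb it was 0.013, 0.050 and 0.11. The cause was not tested. Leaving out either replicate gave a coverage of 17.2% to 24.2% and a coverage fold of -0.065 to -0.0038. No paired analysis was possible because ChIP and input cannot be set side by side: inputs enter only through the lists. Unknown depth limits what an absent region means.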

Other observations

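The 2 libraries differed unevenly along euchromatic 3L. Among whole windows of 1 Mb the coverage of replicate 1 over replicate 2 was lowest from 1000001 to 2000000, with 25.9% against 24.8%, a ratio of 1.05. It was highest from 14000001 to 15000000, with 16.8% against 5.98%, a ratio of 2.81, and from 18000001 to 19000000, with 18.9% against 8.38%, a ratio of 2.26. In the combined list these windows were covered to 28.2%, 11.0% and 13.3%. The windows were picked after their values were seen and the differences have no test.

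Repeated scores were frequent in replicate 1 on each of the 4 arms and less frequent in replicate 2. In replicate 1 they made up 26.3% of regions on 3L, 33.6% on X, 28.4% on 2L and 26.6% on 3R. In replicate 2 they made up 7.16%, 10.2%, 7.68% and 6.97%. The repeated-score regions of replicate 2 were found in replicate 1 in 94.3% of cases on 3L, close to the 95.3% of its single-score regions. On X, 2L and 3R the shares were 81.3%, 89.4% and 79.0%, against 96.7%, 96.1% and 95.6%. The difference between arms was not tested and rests on 47 to 75 repeated-score regions an arm.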
